A study of Mus musculus with 24 samples.

Results

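Cytochromes P450 of families 1 to 3 are haem enzymes of the endoplasmic reticulum that oxidise drugs, pollutants, steroids, fatty acids and bile acids, and the liver holds more of them than any other organ. They receive their electrons from the reductase Por. Their genes lie in clusters of close copies, and hepatocyte factors such as HNF4A, the ligand-activated receptors AHR, PXR (Nr1i2) and CAR (Nr1i3), and the sex-dependent pattern of growth hormone secretion are known to set their levels. Falling P450 levels are a long-known feature of inflamed liver.

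Liver RNA was sequenced from 18 mice labelled as a steatohepatitis model (M1 to M18) and from 6 mice labelled as normal controls (C1 to C6), 1 library per mouse. The sources used here do not state how steatohepatitis was brought about, nor the strain, sex, age, diet or time of day of collection of either group. The genes described were the rows of the count table whose gene ID maps to a mouse symbol made of Cyp, then 1, 2 or 3, then 1 letter and a number, leaving out Cyp2b genes and pseudogene symbols. This gave 53 of 78298 gene IDs in 15 subfamilies: Cyp2c with 15 members, Cyp2d and Cyp2j with 8 each, Cyp3a with 7, Cyp2a with 4, Cyp1a with 2, and 1 member each of Cyp1b, Cyp2e, Cyp2f, Cyp2g, Cyp2r, Cyp2s, Cyp2t, Cyp2u and Cyp2w. Of the 53 members, 43 had enough counts to be tested and 10 did not. Levels are library-scaled counts (CPM) scaled by TMM factors, fold changes are model over control, and a gene was called where the Benjamini-Hochberg adjusted p of edgeR's quasi-likelihood test across 17456 genes was below 0.05. All coordinates of genes are GRCm39, from the first to the last exon, 1-based.

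Promoter sequences are shown first because 4 neighbouring Cyp2c genes that share nearly all of their letters here differed widely in their change. The 9 letters CAAAGTCCA, a form of the HNF4A site, were searched on both strands in the 250 bases before the start of each gene in RefSeq promoters of GRCm38.p6. Of the 45 members with an entry, 8 held the letters (17.8%), against 0.384% of 32851 promoters. Here and for the other motifs below, members were counted per gene and all promoters per entry. The 8 are not separate hits, because the 4 neighbouring Cyp2c genes have near-identical stretches. Capitals mark the match, and each stretch of 60 bases is written 5′ to 3′ on the strand of its gene.
Cyp2c40: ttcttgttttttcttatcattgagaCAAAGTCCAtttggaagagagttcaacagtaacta
Cyp2c69: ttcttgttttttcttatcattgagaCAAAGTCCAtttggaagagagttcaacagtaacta
Cyp2c68: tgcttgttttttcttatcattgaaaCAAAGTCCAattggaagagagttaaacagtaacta
Cyp2c67: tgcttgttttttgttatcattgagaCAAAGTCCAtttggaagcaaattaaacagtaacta
Cyp2c65: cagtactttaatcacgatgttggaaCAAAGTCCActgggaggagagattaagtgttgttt
Cyp2c70: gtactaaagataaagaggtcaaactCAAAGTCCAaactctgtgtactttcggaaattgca
Cyp3a11: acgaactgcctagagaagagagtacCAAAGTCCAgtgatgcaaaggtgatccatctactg
Cyp3a16: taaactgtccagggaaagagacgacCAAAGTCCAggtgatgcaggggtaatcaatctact

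The Cyp2c40 stretch (chr19:39812825-39812884, minus strand, GRCm38.p6) and the Cyp2c69 stretch (chr19:39886810-39886869, minus strand) were identical over all 60 bases. The stretch of Cyp2c68 differed from both at 4 bases and that of Cyp2c67 at 6. The Cyp3a11 stretch was at chr5:145879929-145879988 on the minus strand. In the same promoters the AHR core GCGTG was found for 7 members (15.6%, against 28.2% of all promoters), Cyp1a1 and Cyp1b1 among them. TTCNNNGAA, the STAT5 form, was found for 2 members (4.44%, against 7.02%), and TTATGTAA or TTACGTAA, the D box bound by clock output factors, for none, against 0.931% of all promoters. A match or its absence in these windows says nothing of whether a factor binds there.

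Coding sequences are shown for 2 pairs of copies because 1 gene of each pair, Cyp2a4 and Cyp2a22, rose strongly, and the reads of a pair can be told apart only at the bases that differ. Between the longest open reading frames of GENCODE M21 transcripts, Cyp2a4 and Cyp2a5 differed at 23 of the 1485 bases compared (98.5% identity). Cyp2a22 and Cyp2a12 differed at 45 of 1479 bases (97.0%). Capitals mark the differing bases in bases 596 to 655 of the first pair and 1277 to 1336 of the second, counted from the start codon.
Cyp2a4: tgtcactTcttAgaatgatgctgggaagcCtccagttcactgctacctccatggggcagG
Cyp2a5: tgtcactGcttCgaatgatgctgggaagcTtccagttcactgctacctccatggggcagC
Cyp2a22: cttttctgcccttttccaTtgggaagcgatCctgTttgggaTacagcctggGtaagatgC
Cyp2a12: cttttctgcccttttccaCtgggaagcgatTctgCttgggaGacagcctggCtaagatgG

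Library totals were 31.6 to 58.4 M counts, so 3 counts stood for 0.0488 to 0.106 CPM. Hepatocyte markers were abundant in both groups, but the groups differed in their makeup. The summed level of 10 such markers was 62353 to 121773 CPM in model mice and 127174 to 189819 CPM in controls, with no overlap. This separation depended on the scaling, and with library totals the sums overlapped. TMM factors were 0.813 to 0.892 in controls and 0.990 to 1.16 in model mice. Of the 10 markers, 8 were called lower (28.8% of all genes tested were) and 2 were not called. Alb, which weighs most in the sum, overlapped between the groups, at 96494 CPM in M10 and 86859 CPM in C5. All 10 macrophage and all 10 stellate and fibroblast markers were called higher in model mice (31.2% of all genes tested were), and none of these had 0 counts throughout a group. In bulk tissue, fewer hepatocytes and less P450 RNA per hepatocyte cannot be told apart, and the part of the makeup in the results below was not tested. A second feature touches the comparison. A clock index was taken as the mean log2 level of 9 circadian genes such as Dbp, Per2 and Nr1d1 minus that of 5 circadian genes such as Arntl, Clock and Cry1, which peak at another time of day. It was 2.42 to 3.52 in model mice and -0.95 to 1.02 in C1 to C5, while C6 had 3.29. The phase of the clock at collection and the group therefore cannot be told apart outside C6. Calls of members that were lost when the index entered the fit, or when C6 alone was the control, are named below. For genes outside the members, the calls of single genes given below are those of the fit with all controls and without the index. They carry the same limit.

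More P450 genes of families 1 to 3 were called lower in model mice than were called higher. Of the 43 members tested, 30 were called: 9 were higher (20.9% of members, against 31.2% of all genes tested) and 21 were lower (48.8% of members, against 28.8%). In either direction 69.8% of members were called, against 60.0% of all genes. The median log2 fold change was -0.22 over members and 0.01 over all genes tested. At 2-fold or more, 5 members were higher (16.3% of all genes) and 4 were lower (3.44% of all genes). In 3 members every model mouse was above every control (9.67% of all genes), and in 8 every model mouse was below every control (6.02% of all genes). These separations, and those given below, are in CPM with TMM factors, and some depended on that scaling. As a share of all counts, Cyp2r1 was 0.000708 to 0.00108% in model mice and 0.000993 to 0.00145% in controls, which overlap. The Cyp1a sum overlapped too, at 0.0185 to 0.0416% in model mice and 0.0372 to 0.0619% in controls. The split of calls also depended on the scaling. With library totals alone, which shifted the median of all genes to 0.34, 14 members were called higher and 15 lower. With the clock index in the fit 19 members were called, 5 higher and 14 lower (37.3% of all genes in either direction), and against C6 alone 12 were called, 1 higher and 11 lower (23.1% of all genes).

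Of the 30 calls, 11 held both with the clock index and against C6 alone: the rise of Cyp2a22 and the falls of Cyp1a2, Cyp2c23, Cyp2c40, Cyp2c67, Cyp2c68, Cyp2c69, Cyp2d10, Cyp2j8, Cyp2r1 and Cyp3a11. Among them, the calls of Cyp2c23 and Cyp2j8 were lost with some single mice left out, and C6 was the highest control for both. The checks also share C6, the only control with an index among those of the model mice. With the index 12 calls were lost, those of Cyp2a4, Cyp2a12, Cyp2c39, Cyp2c54, Cyp2c55, Cyp2d11, Cyp2d22, Cyp2f2, Cyp2j5, Cyp2u1, Cyp3a25 and Cyp3a59. All 12 kept their sign with the index, and in 3 of them the fold change was as large or larger. Outside C6 the index did not overlap between the groups, which leaves a wide error in this fit. Against C6 alone these 12 were lost and also those of Cyp1b1, Cyp2d9, Cyp2d12, Cyp2d40, Cyp2j9, Cyp3a13 and Cyp3a57, 19 in all. All 19 kept their sign there, and in 8 of them the fold change was as large as with all controls or larger, but a single control leaves a wide error. Cyp2c70 was called with the index only and Cyp2a5 against C6 only.

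**Figure D1:**
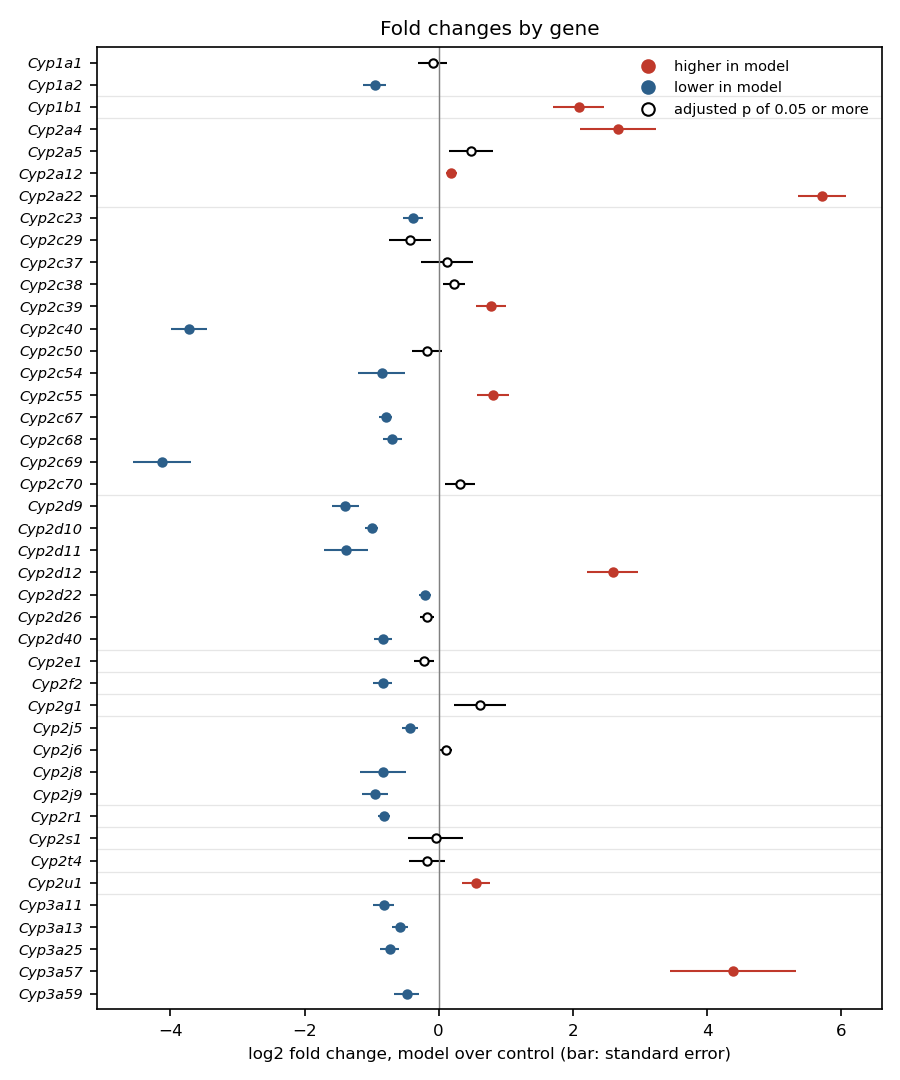
Log2 fold changes (model over control, 18 and 6 mice) of the 43 members tested, with bars of 1 standard error, grouped by subfamily. Filled points were called at an adjusted p below 0.05 (9 higher in red, 21 lower in blue) and open points were not; Cyp2a22 lies farthest to the right at 5.72 and Cyp2c69 farthest to the left at -4.12.

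Summed over all 53 members, the level was 30204 ± 5122 CPM in model mice and 41244 ± 5446 CPM in controls (SD, n = 18 and 6). The log2 ratio of these sums was -0.45, but -0.13 with library totals and -0.024 when levels were expressed per gene length (TPM). In 13 of the 18 model mice the sum was below every control. The single gene Cyp2e1 held 54.1 ± 3.33% of the members' TPM in model mice and 47.8 ± 4.04% in controls. Without Cyp2e1, the sum was 15693 ± 2081 CPM in model mice and 24394 ± 3924 CPM in controls, a log2 ratio of -0.64, and every model mouse was below every control. This separation depended on the scaling: as a share of all counts the sum without Cyp2e1 was 1.19 to 1.92% in model mice and 1.73 to 2.46% in controls, which overlap, and per TPM it was 14068 ± 1812 in model mice and 16298 ± 1483 in controls. The Cyp3a subfamily held 13.9 ± 3.58% of members' TPM in model mice and 17.7 ± 5.42% in controls, and Cyp2d 11.3 ± 1.20% and 15.1 ± 2.33%. The mean share of the Cyp2a subfamily went the other way, with 5.50 ± 0.70% in model mice and 2.86 ± 1.80% in controls. This did not hold for C6, the control with a clock index among those of the model mice. The Cyp2a sum was 2719 CPM in C6, above every model mouse (1198 to 2194 CPM). It was 1369 CPM in C3 and 568 to 867 CPM in C1, C2, C4 and C5.

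**Figure D2:**
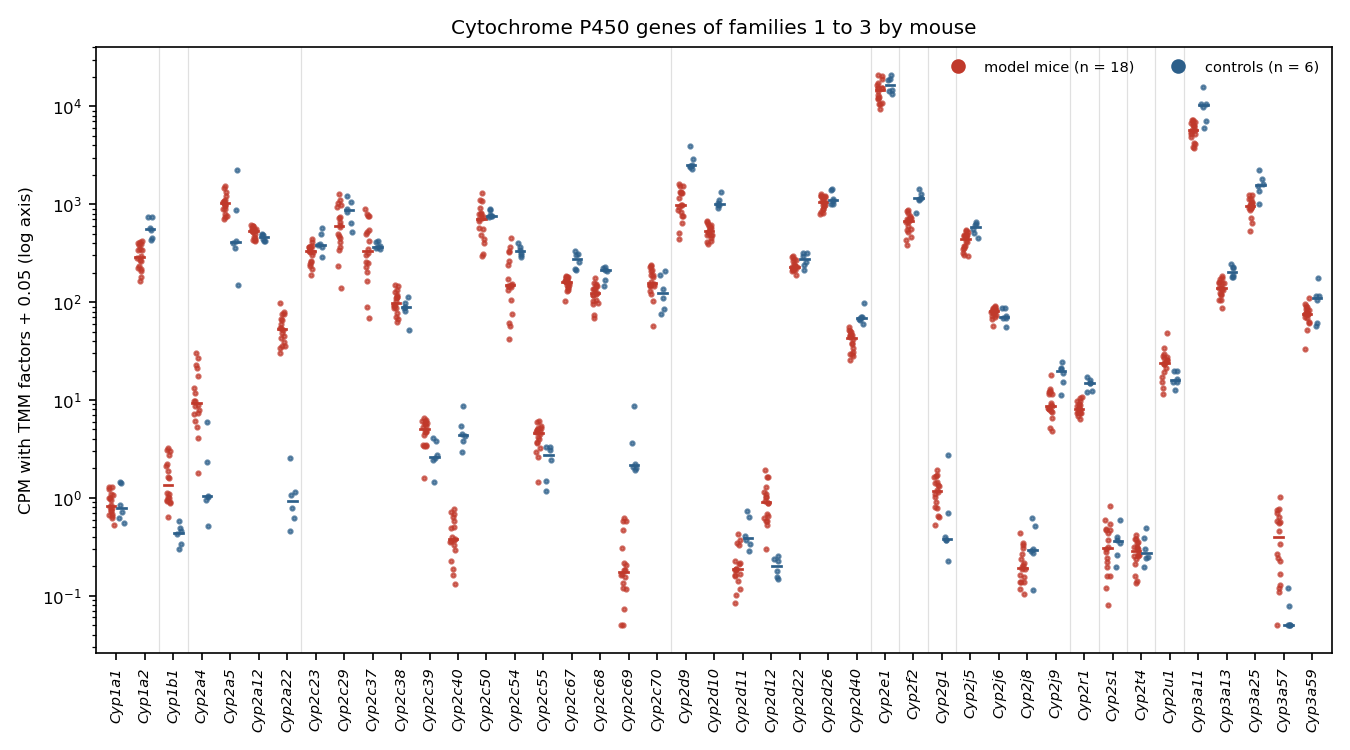
Level of each tested member in each mouse, in CPM with TMM factors plus 0.05 on a log axis, with model mice in red to the left of controls in blue and a line at each group's median. Levels run from 9404 CPM and more for Cyp2e1 down to single counts for Cyp3a57, and the red and blue points of Cyp2a22, Cyp2c40 and Cyp2d9 do not overlap.

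Of the AHR-regulated family 1 genes, Cyp1a2 fell, Cyp1a1 was low in both groups, and Cyp1b1 rose. Cyp1a2 (chr9:57584220-57590986, minus strand), which oxidises aromatic amines and caffeine, had 165 to 417 CPM in model mice with a median of 289. Controls C1 to C6 had 551, 457, 578, 426, 734 and 737 CPM. Every model mouse was below every control, and the log2 fold change was -0.96 (SE 0.17, edgeR adjusted p = 2.57e-05). As a share of all counts, however, the sum of Cyp1a2 and Cyp1a1 overlapped between the groups. Its neighbour Cyp1a1 (chr9:57595211-57611107, plus strand) had 0.473 to 1.23 CPM in model mice and 0.497 to 1.39 CPM in controls and was not called (log2 fold change -0.09, SE 0.22, edgeR adjusted p = 0.738).

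Cyp1b1 (chr17:80008966-80022490, minus strand) hydroxylates oestrogens and is known from cells other than hepatocytes. It had 0.583 CPM in the lowest model mouse (M10), a median of 1.31, and 3.20 CPM in the highest (M16), against 0.440, 0.372, 0.289, 0.532, 0.251 and 0.405 CPM in C1 to C6. Every model mouse was above every control, with a log2 fold change of 2.09 (SE 0.38, edgeR adjusted p = 3.54e-05). With the clock index in the fit it was 2.02 (adjusted p = 0.0232), and against C6 alone it was 2.00 (adjusted p = 0.135). The 10 stellate and fibroblast markers summed to 168 to 473 CPM in model mice, lowest in M10, and to 57.6 to 149 CPM in controls, and 10 macrophage markers to 173 to 802 CPM in model mice, also lowest in M10, and to 34.5 to 87.7 CPM in controls. The part of these cells in the level of Cyp1b1 was not tested.

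Of 6 tested genes of the AHR pathway, 3 were called, against 60.0% of all genes tested: 1 was higher and 2 were lower. Nqo1, a quinone reductase that is also a target of another stress pathway, rose (log2 fold change 1.51, SE 0.14, edgeR adjusted p = 1.22e-09), and the AHR partners Hsp90ab1 (-0.32) and Arnt (-0.19) fell. The receptor Ahr itself had 40.8 ± 8.37 CPM in model mice and 36.5 ± 6.94 CPM in controls and was not called (log2 fold change 0.16, edgeR adjusted p = 0.296). Cyp1a2 fell and Nqo1 rose in the same livers, in which the receptor's own level did not pass the test.

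The Cyp2a subfamily lies on chromosome 7 and was the one subfamily of more than 1 member whose called members all rose, 3 of 4. Cyp2a22 (ENSMUSG00000091867, chr7:26631056-26638809, minus strand) had the largest rise of all members. It had 30.0 CPM in the lowest model mouse (M17), a median of 52.6 and 97.1 CPM in the highest (M9). Controls C1 to C6 had 1.03, 0.571, 1.09, 0.745, 0.409 and 2.50 CPM. The groups were far apart, with a log2 fold change of 5.72 (SE 0.36, edgeR adjusted p = 5.06e-12), which was 5.02 with the clock index in the fit and 4.46 against C6 alone. Its near copy Cyp2a12 (chr7:26728506-26736800, plus strand), a testosterone 7α-hydroxylase, had 522 ± 59.3 CPM in model mice and 458 ± 35.6 CPM in controls. The difference in Cyp2a12 was small (log2 fold change 0.19, SE 0.08, edgeR adjusted p = 0.0416), and the call was lost when C2, C4, C5 or any 1 of 10 model mice was left out, at adjusted p of 0.0506 to 0.111. The log2 fold change of Cyp2a12 was 0.11 with the clock index in the fit (adjusted p = 0.548).

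Cyp2a4 (ENSMUSG00000074254, chr7:26006594-26014513, plus strand), a steroid 15α-hydroxylase that is higher in female mice, had 1.75 CPM in the lowest model mouse (M8), a median of 9.21 and 29.8 CPM in the highest (M4). Controls C1 to C6 had 0.998, 0.893, 2.28, 0.461, 0.974 and 5.94 CPM. Of the 18 model mice, 15 were above every control, and the log2 fold change was 2.67 (SE 0.57, edgeR adjusted p = 0.0003). With the clock index in the fit it was 1.40 (adjusted p = 0.169), and against C6 alone it was 1.04 (adjusted p = 0.525).

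Its near copy Cyp2a5 (chr7:26534730-26542973, plus strand), the coumarin 7-hydroxylase, had 708 to 1529 CPM in model mice with a median of 1024. Controls had 357, 404, 879, 149, 425 and 2223 CPM, so that C6 was above every model mouse and C1, C2, C4 and C5 were below every one. Cyp2a5 was not called (log2 fold change 0.48, SE 0.32, edgeR adjusted p = 0.207). Without C6 it was called higher at 1.21 (adjusted p = 0.000209), and against C6 alone it was called lower at -1.10 (adjusted p = 0.00685). Cyp2g1 (chr7:26508317-26520630, plus strand), an olfactory P450 that lies next to Cyp2a5, was also highest in C6. It had 0.483 to 1.90 CPM in model mice and 0.176, 0.645, 0.322, 0.319, 0.346 and 2.67 CPM in C1 to C6. It was not called (log2 fold change 0.61, SE 0.39, edgeR adjusted p = 0.179), and was called at 1.61 without C6 (adjusted p = 0.000137).

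**Figure D3:**
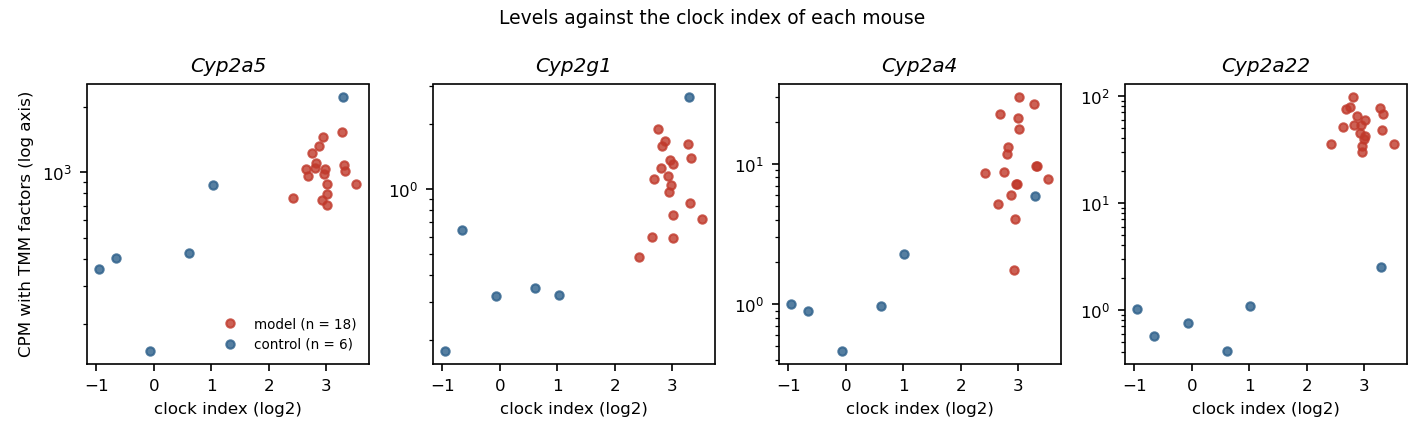
Levels of Cyp2a5, Cyp2g1, Cyp2a4 and Cyp2a22 in CPM (log axes) against the clock index of each mouse (log2 units), with 18 model mice in red and 6 controls in blue. C6, at an index of 3.29 among the model mice, has the highest Cyp2a5 and Cyp2g1 of all mice and the highest Cyp2a4 and Cyp2a22 of the controls, but its 2.50 CPM of Cyp2a22 is far below the 30.0 CPM of the lowest model mouse.

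The Cyp2c subfamily, a cluster on chromosome 19 whose enzymes include epoxygenases of arachidonic acid, held the largest falls, and several of its abundant genes spread widely over model mice. Of 13 members tested, 2 were called higher and 6 lower, and 5 were not called. The summed Cyp2c level was 2825 ± 1012 CPM in model mice and 3495 ± 423 CPM in controls; the log2 ratio of -0.31 turned to 0.0040 with library totals and 0.045 per TPM.

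Cyp2c40 (ENSMUSG00000025004, chr19:39755515-39801258, minus strand) and Cyp2c69 (ENSMUSG00000092008, chr19:39831258-39875243, minus strand), both listed as higher in female mice, fell the most. Cyp2c40 had 0.0818 to 0.722 CPM in model mice with a median of 0.327, and 4.20, 2.88, 5.37, 8.70, 4.40 and 3.75 CPM in C1 to C6 (log2 fold change -3.72, SE 0.27, edgeR adjusted p = 1.74e-11). Cyp2c69 had 0 CPM in M3 and M16, a median of 0.124 and at most 0.569 CPM in model mice, against 2.03, 2.16, 1.87, 8.55, 3.55 and 1.96 CPM in controls (log2 fold change -4.12, SE 0.44, edgeR adjusted p = 1.67e-08). Every model mouse was below every control for both, and both calls held with the clock index in the fit and against C6 alone, at log2 fold changes of -3.42 to -3.33.

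The neighbours Cyp2c67 (chr19:39597286-39637495) and Cyp2c68 (chr19:39677278-39729498), on the same strand and with the promoters shown above, fell with smaller log2 fold changes. Cyp2c67 had 157 ± 21.8 CPM in model mice and 272 ± 50.5 CPM in controls (log2 fold change -0.79, SE 0.10, edgeR adjusted p = 1.81e-07), and every model mouse was below every control. Cyp2c68 had 123 ± 28.5 CPM in model mice and 198 ± 33.5 CPM in controls (log2 fold change -0.69, SE 0.14, edgeR adjusted p = 0.000164). The coding sequence of Cyp2c40 was 98.1% identical to Cyp2c68, 97.9% to Cyp2c69 and 97.7% to Cyp2c67. The sources used here do not say how the counting assigned reads that match several copies, and the values of these 4 genes are uncertain to that extent.

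Cyp2c29 (chr19:39257849-39319157), Cyp2c37 (chr19:39980868-40000687), Cyp2c50 (chr19:40078132-40102394) and Cyp2c54 (chr19:40026384-40062271) are abundant arachidonic acid epoxygenases or their close copies. Their group means differed little or moderately, while their spread over model mice was wide. Cyp2c37 had 69.0 CPM in M16, a median of 333 and 891 CPM in M10, a 12.9-fold range, against 357, 364, 372, 349, 408 and 423 CPM in C1 to C6. Cyp2c54 had 42.0 CPM in M2, a median of 148 and 456 CPM in M12, a 10.8-fold range, against 318, 361, 343, 288, 305 and 404 CPM in controls.

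Cyp2c29 had 140.4 CPM in M13, a median of 601 and 1264 CPM in M12, against 839, 1060.3, 642, 518, 898 and 1215 CPM in controls. Cyp2c50 had 299 CPM in M16, a median of 713 and 1306 CPM in M12, against 754, 777, 893, 749, 745 and 867 CPM in controls. The SD of log2 CPM over model mice was 0.82 for Cyp2c29, 1.05 for Cyp2c37, 0.60 for Cyp2c50 and 0.97 for Cyp2c54, and over controls it was 0.46, 0.11, 0.12 and 0.18. The median SD of all genes tested was 0.26 over model mice and 0.28 over controls. Cyp2c54 was called lower (log2 fold change -0.85, SE 0.36, edgeR adjusted p = 0.0423), but the call was lost when any 1 of the 6 controls or any 1 of 8 model mice was left out (adjusted p up to 0.081). Cyp2c37 (0.12), Cyp2c50 (-0.18) and Cyp2c29 (-0.42) were not called.

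M16 and M13 were among the lowest 4 model mice for each of these genes, and M11, M12 and M14 among the highest 5. Nr1i3, which encodes the receptor CAR and is known to drive several Cyp2c genes, was also lowest in M16 at 21.2 CPM and M13 at 28.2 CPM, and stood at 67.7 CPM in M11, 77.0 CPM in M12 and 68.2 CPM in M14, with its highest value of 86.9 CPM in M10. As a group, Nr1i3 had 49.5 ± 18.7 CPM in model mice and 62.6 ± 7.15 CPM in controls and was not called (log2 fold change -0.34, edgeR adjusted p = 0.178). The summed 10 hepatocyte markers were lowest in M13 (62353 CPM) and highest in M10 (121773 CPM). Alb, the gene of albumin, weighs most in that sum, at 40830 CPM in M13, 50874 CPM in M16 and 96494 CPM in M10. Other genes of hepatocytes followed Alb in part. In M13, M16 and M10, Apoa2 had 3659, 3760 and 3968 CPM, in the order of Alb. Ahsg had 4049, 5512 and 5387 CPM in the same mice, and M13 was its lowest model mouse, as for Alb. Asgr1 had 540, 562 and 558 CPM there, and Apoa1 5500, 5333 and 4519 CPM. The part of Nr1i3 or of hepatocyte makeup in the Cyp2c spread was not tested.

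**Figure D4:**
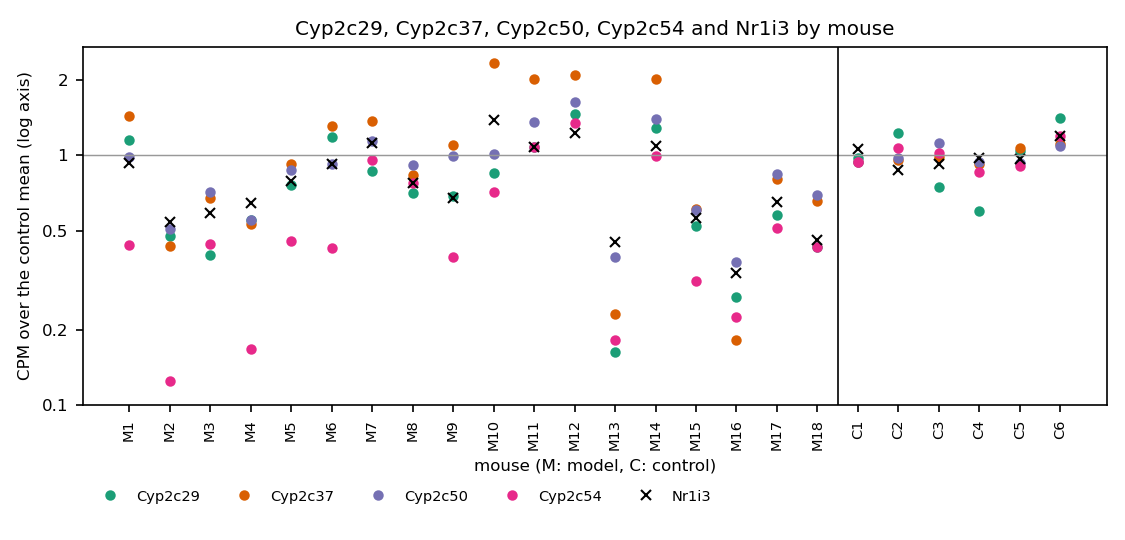
Levels of Cyp2c29, Cyp2c37, Cyp2c50, Cyp2c54 and Nr1i3 in each mouse, as CPM divided by the mean of the 6 controls on a log axis. Controls lie close to 1 for Cyp2c37, Cyp2c50, Cyp2c54 and Nr1i3 and spread more for Cyp2c29 (518 to 1215 CPM), while M13 and M16 lie low for all the genes plotted and M11, M12 and M14 lie at or above the control mean for nearly all.

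Cyp2c39, a retinoic acid hydroxylase, and Cyp2c55 were the Cyp2c genes called higher. Cyp2c39 had 4.78 ± 1.34 CPM in model mice and 2.79 ± 0.954 CPM in controls (log2 fold change 0.77, SE 0.22, edgeR adjusted p = 0.00401). Cyp2c55 had 4.25 ± 1.22 CPM in model mice and 2.41 ± 0.936 CPM in controls (log2 fold change 0.81, SE 0.24, edgeR adjusted p = 0.00428). Both calls were lost with the clock index in the fit (adjusted p = 0.0625 for Cyp2c39 and 0.128 for Cyp2c55), and in both genes M10 was the lowest model mouse. Cyp2c70, which makes the muricholic acids that mark mouse bile, was not called, at 166 ± 47.8 CPM in model mice and 134 ± 55.2 CPM in controls (log2 fold change 0.31), but with the clock index it was called higher at 1.04 (adjusted p = 0.0373). Cyp2c38 was not called either, at 102 ± 25.8 CPM in model mice and 86.7 ± 20.7 CPM in controls. Cyp2c23 had 319 ± 70.0 CPM in model mice and 416 ± 100.2 CPM in controls and was called lower (log2 fold change -0.38, edgeR adjusted p = 0.0247), but not without C5 or C6.

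The Cyp2d cluster on chromosome 15 was mostly lower: of 7 members tested, 5 were called lower and 1 higher. Its summed level was 2901 ± 587 CPM in model mice and 5329 ± 896 CPM in controls, with every model mouse below every control and a log2 ratio of -0.88, or -0.45 per TPM. Cyp2d9 (chr15:82317638-82341046, plus strand), the testosterone 16α-hydroxylase that marks the male mouse liver, had 444 CPM in M4, a median of 985 and 1615 CPM in M14. Controls C1 to C6 had 2296, 2527, 2891, 2469, 3917 and 2386 CPM. Every model mouse was below every control (log2 fold change -1.39, SE 0.20, edgeR adjusted p = 1.71e-06), and against C6 alone the log2 fold change was -1.18 (adjusted p = 0.0628).

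Cyp2d10 (chr15:82287047-82291396, minus strand) fell with little spread. It had 390.4 to 677 CPM in model mice with a median of 527, and 978, 1033, 983, 923, 1326 and 1104 CPM in controls (0.502 times the control level, SE 0.10 on the log2 scale, edgeR adjusted p = 4.26e-09). Cyp2d40 had 40.5 ± 9.20 CPM in model mice and 71.9 ± 13.0 CPM in controls (-0.83, edgeR adjusted p = 9.27e-06), again with every model mouse below every control, and against C6 alone it was -0.80 (adjusted p = 0.0614). The abundant Cyp2d26 (chr15:82674302-82678495, minus strand) had 786 to 1277 CPM in model mice with a median of 1063, and 1142, 1012, 1015, 1077, 1441 and 1382 CPM in controls. The groups overlapped and Cyp2d26 was not called (log2 fold change -0.17, SE 0.10, edgeR adjusted p = 0.148).

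Cyp2d22, at 237 ± 30.1 CPM in model mice and 273 ± 43.3 CPM in controls, was called at an adjusted p of 0.0495 (log2 fold change -0.21), and the call was lost when C2, C5, C6 or any 1 of 13 model mice was left out (adjusted p of 0.0517 to 0.155). The rare Cyp2d12 rose. It had 0.250 to 1.89 CPM in model mice and 0.0993 to 0.203 CPM in controls, with every model mouse above every control (log2 fold change 2.60, SE 0.38, edgeR adjusted p = 1.85e-06), and was lowest in M10. Its log2 fold change was 2.02 with the clock index (adjusted p = 0.0176) and against C6 alone 2.17 (adjusted p = 0.0912). The rare Cyp2d11 fell, with 0.161 ± 0.096 CPM in model mice and 0.413 ± 0.183 CPM in controls (-1.38, edgeR adjusted p = 0.0007), and with the clock index it was -1.08 (adjusted p = 0.175).

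Cyp2e1 (ENSMUSG00000025479, chr7:140343652-140354900, plus strand), which oxidises ethanol, paracetamol and fatty acids around the central vein, was the most abundant member, at 16792 ± 3387 TPM in model mice and 15081 ± 2687 TPM in controls. In CPM it had 9404 in M16, a median of 14758 and 21045 in M14, and C1 to C6 had 14361, 14615, 18569, 13475, 18952 and 21124. The groups overlapped and Cyp2e1 was not called (log2 fold change -0.22, SE 0.15, edgeR adjusted p = 0.205), and the sign turned to 0.10 with library totals.

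Cyp2f2 (chr7:26819334-26833085, plus strand), known as a periportal P450 that activates naphthalene, had 379 CPM in M4, a median of 670.2 and 867 CPM in M10. Controls had 1169, 1105, 1272, 1120.0, 1444 and 809 CPM. Of the 18 model mice 15 were below every control (log2 fold change -0.84, SE 0.14, edgeR adjusted p = 8.97e-06). C6 was the lowest control, and against it alone the log2 fold change was -0.32 (adjusted p = 0.504); with the clock index in the fit it was -0.57 (adjusted p = 0.0683).

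Genes that mark the same 2 zones of the liver lobule outside the P450 families were counted beside these. Of all genes tested, 31.2% were called higher and 28.8% lower. Of 10 periportal genes 9 were called lower and none higher, among them G6pc (log2 fold change -2.09), the last step of glucose release, and Pck1 (-2.06), the gate of gluconeogenesis. Of 10 pericentral genes 5 were called higher and none lower, among them Aldh3a2 (0.84), a fatty aldehyde dehydrogenase, and Oat (0.79), an ornithine aminotransferase.

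The Cyp3a cluster on chromosome 5 was mostly lower: of 5 members tested, 4 were called lower and 1 higher. The summed level was 6850 ± 1242 CPM in model mice and 11939 ± 3936 CPM in controls, a log2 ratio of -0.80, or -0.39 per TPM. Cyp3a11 (ENSMUSG00000056035, chr5:145791236-145816774, minus strand), the main steroid and drug 6β-hydroxylase of mouse liver and the standard PXR target, had 3772 CPM in M8, a median of 5749 and 7283 CPM in M13. Controls C1 to C6 had 9868, 15912, 10676, 7151, 5938 and 10671 CPM. C4 and C5 lay within the range of the model mice, and C2 well above the other controls. The log2 fold change was -0.82 (SE 0.15, edgeR adjusted p = 5.22e-05), and -0.90 against C6 alone.

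Cyp3a25 (chr5:145914004-145946428, minus strand) had 527 CPM in M2, a median of 961 and 1253 CPM in M1, against 1804, 2239, 1526, 1364, 1013 and 1594 CPM in controls. It fell (log2 fold change -0.73, SE 0.14, edgeR adjusted p = 5.89e-05), with C5 again the lowest control, and with the clock index in the fit it was -0.57 (adjusted p = 0.055). Cyp3a13 had 139 ± 26.7 CPM in model mice and 207 ± 26.6 CPM in controls (-0.58, edgeR adjusted p = 0.000118), and against C6 alone it was -0.67 (adjusted p = 0.0607). Cyp3a59, whose coding sequence is 97.5% identical to Cyp3a25, had 75.7 ± 17.3 CPM in model mice and 105 ± 43.8 CPM in controls (-0.47, edgeR adjusted p = 0.0309), and the call was lost without C2, C3 or C6 (adjusted p of 0.0612 to 0.223). Cyp3a57 had 311 counts over the model mice and 3 over the controls, a ratio of 26.0 after scaling for library sizes (95% counting interval 8.81 to 127, covering counting error only). It was called higher (edgeR adjusted p = 0.000269), with counts in every model mouse except M10 and the highest level, 0.977 CPM, in M2. The call held with the clock index (adjusted p = 0.0367) and was lost against C6 alone (adjusted p = 0.147).

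Nr1i2, which encodes PXR, had 79.4 ± 7.94 CPM in model mice and 130.3 ± 22.9 CPM in controls, with every model mouse below every control (log2 fold change -0.72, SE 0.08, edgeR adjusted p = 2.44e-08). Of 8 genes listed as xenobiotic receptors, partners or coregulators, 5 were called lower and none higher, with Nr1i2 and Ppargc1a (-0.48) the farthest. Of all genes tested, 60.0% were called and 28.8% were called lower. Cyp3a11 and its receptor PXR were thus both lower in model mice, while CAR, described above, was not called.

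In the Cyp2j cluster on chromosome 4, 3 of 4 members tested were called lower and none higher, and the log2 ratio of the summed level was -0.37, or -0.049 with library totals. Cyp2j5, an arachidonic acid epoxygenase of liver and kidney, had 426 ± 80.8 CPM in model mice and 571 ± 81.4 CPM in controls (log2 fold change -0.42, SE 0.12, edgeR adjusted p = 0.00308), and with the clock index it was -0.30 (adjusted p = 0.249). Cyp2j9 had 9.60 ± 3.24 CPM in model mice and 18.5 ± 4.60 CPM in controls (-0.95, edgeR adjusted p = 0.000164), and against C6 alone it was -1.09 (adjusted p = 0.0607). Cyp2j8, at 0.165 ± 0.0906 CPM in model mice and 0.302 ± 0.184 CPM in controls, was called lower (edgeR adjusted p = 0.0417) but not when C4, C6 or any 1 of 8 model mice was left out. Cyp2j6 was not called, at 78.8 ± 8.37 CPM in model mice and 73.2 ± 11.9 CPM in controls.

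Among the subfamilies of 1 gene, Cyp2r1, the vitamin D 25-hydroxylase, was lower in every model mouse than in any control with TMM factors, though not as a share of all counts. It had 6.35 to 10.6 CPM in model mice and 12.0 to 17.3 CPM in controls (log2 fold change -0.82, SE 0.09, edgeR adjusted p = 4.66e-08), and the fall was as large with the clock index in the fit (-0.92) and against C6 alone (-1.05). Cyp2u1 (chr3:131082090-131096876, minus strand), a fatty acid hydroxylase that is not confined to liver, had 11.5 CPM in M4, a median of 24.0 and 48.4 CPM in M3, against 19.6, 15.3, 19.6, 12.6, 16.4 and 15.3 CPM in controls. It was called higher (log2 fold change 0.56, SE 0.21, edgeR adjusted p = 0.0215), but not without C4 (adjusted p = 0.0607) or with the clock index in the fit (0.60, adjusted p = 0.213). Cyp2s1 and Cyp2t4, both under 1 CPM, were not called.

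The members with a known sex bias did not move one way. Of 4 tested members listed as higher in female mice, Cyp2a4 rose, Cyp2c40 and Cyp2c69 fell, and Cyp2g1 was not called. Of 2 listed as higher in males, Cyp2d9 fell and Cyp2u1 rose. Sex-biased P450 genes outside the members, including Cyp2b genes of family 2 that were left out, are given beside them. All 6 tested were called, against 60.0% of all genes tested. The female-biased Cyp2b9 had 73.8 ± 48.9 CPM in model mice and 0.0779 ± 0.146 CPM in controls, and Cyp2b13 7.72 ± 9.17 CPM in model mice, with 2 counts in all in controls. Cyp7b1 (log2 fold change -2.79), an oxysterol hydroxylase, Cyp17a1 (-2.26) and the male-biased Cyp4a12a (-1.74) and Cyp4a12b (-1.83) fell.

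Of 12 growth hormone and sex-biased regulators, 7 were called, near the 60.0% of all genes tested: 1 was higher and 6 were lower. Cux2, a repressor that is known from female liver, had 0.751 ± 0.913 CPM in model mice and 6.01 ± 7.21 CPM in controls (log2 fold change -3.04, SE 0.65, edgeR adjusted p = 0.000286), and the controls spread from 0.193 CPM in C3 to 19.5 CPM in C2. Socs2, a growth hormone target, fell (-1.49), and Stat5b, which carries the growth hormone signal to the P450 genes, had 45.3 ± 4.47 CPM in model mice and 51.8 ± 6.97 CPM in controls (-0.19, edgeR adjusted p = 0.0272). The labels do not state the sex of the mice.

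Some partners that P450 enzymes need changed, in shares (3 of 6 electron partners and 6 of 12 haem genes) below the 60.0% of all genes called. Por, the reductase that supplies electrons to every microsomal P450, had 403 ± 97.5 CPM in model mice and 811 ± 210.3 CPM in controls, with 17 of 18 model mice below every control (log2 fold change -1.01, SE 0.15, edgeR adjusted p = 2.90e-06). Of 6 electron partners, 1 was called higher and 2 lower, with Cyb5b (-0.34) the next farthest and Cyb5a, cytochrome b5, higher (0.28). Of 12 genes of haem synthesis and breakdown, 3 were called higher and 3 lower. Hmox1, which breaks haem down and is abundant in macrophages, rose (1.90, SE 0.24, edgeR adjusted p = 2.95e-07), and Hmox2 fell (-0.78). Alas1, the first step of haem synthesis, was not called, at 651 ± 184 CPM in model mice and 873 ± 434 CPM in controls (log2 fold change -0.42, edgeR adjusted p = 0.093). Its levels in C1 to C6 were 432, 479, 1007, 613, 1209 and 1500 CPM. C3, C5 and C6, the controls with the highest clock index, were above every model mouse (at most 999 CPM, in M3).

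Of 10 hepatocyte transcription factors, 7 were called, against 60.0% of all genes tested: 1 was higher and 6 were lower (28.8% of all genes were lower). Hnf4a had 589 ± 74.4 CPM in model mice and 1118 ± 220.5 CPM in controls, with every model mouse below every control (log2 fold change -0.93, SE 0.09, edgeR adjusted p = 5.66e-09). Cebpb (-1.03) and Foxa3 (-0.94) were the farthest of the list. Of 4 clock output factors that bind the D box, the activator Dbp rose (2.68, SE 0.46, edgeR adjusted p = 2.27e-05) and its antagonist Nfil3 fell (-2.14). Dbp was 45.7 to 80.3 CPM in model mice and 1.85 to 40.5 CPM in controls, highest in C6.

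Members with a mean of at least 10 CPM numbered 28, and the median SD of their log2 levels was 0.34 over model mice and 0.27 over controls, against 0.17 and 0.19 for all genes tested at that level. Model mice were ranked for each of these members. M2 was among the lowest 3 for 20 of the 28 members, M13 for 12 and M16 for 10. M12 was among the highest 3 for 16, M14 for 12 and M10 for 10. The low mice differed in which genes were low: Cyp2d9, Cyp1a2 and Cyp2c54 were low in M2 and M4, Cyp2c29 and Cyp2c37 in M13 and M16, and Cyp3a25 in M2 and M3. M13 had the lowest Cyp2c29 and the highest Cyp3a11, so the Cyp2c and Cyp3a levels of a mouse did not go together in every animal.

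**Figure D5:**
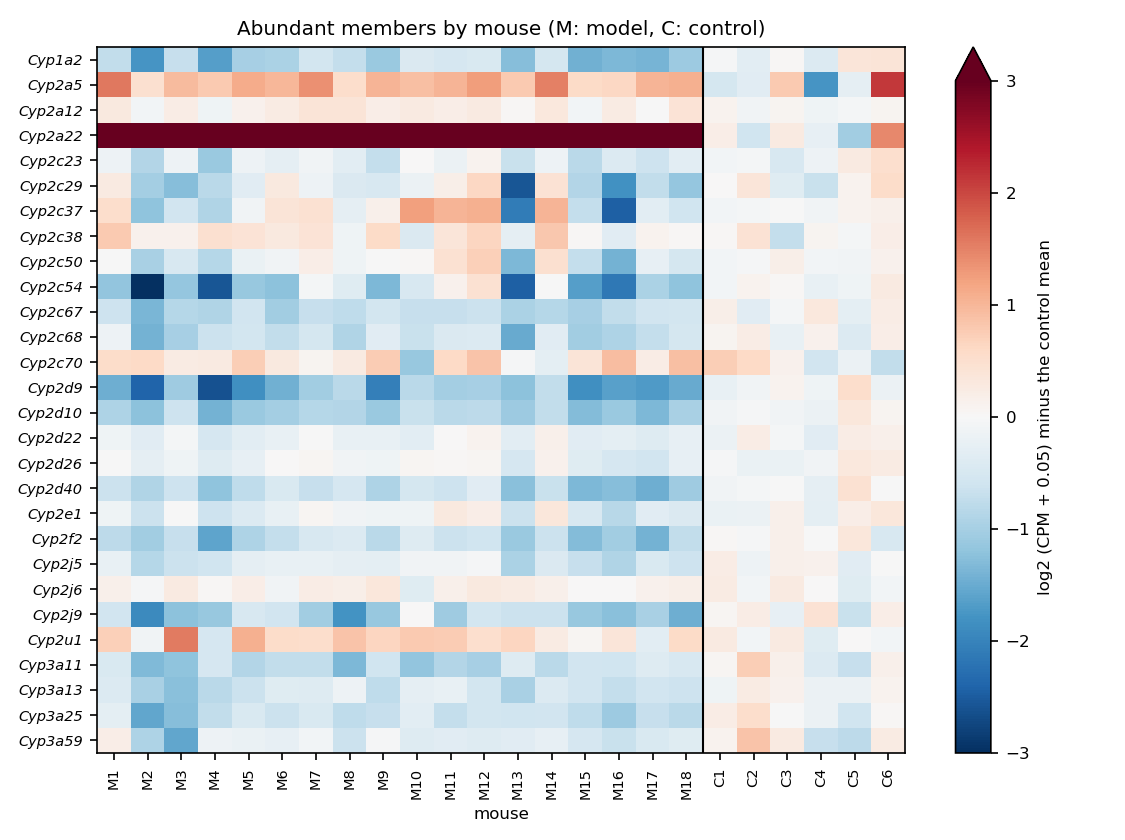
Log2 (CPM + 0.05) of the 28 members with a mean of at least 10 CPM in each mouse, minus the mean of the 6 controls; blue is lower and red is higher, and the scale ends at 3. The rows of Cyp1a2, Cyp2d9, Cyp2d10, Cyp2f2 and Cyp3a11 are blue in all 18 model mice, Cyp2a22 is beyond the scale in all of them, and M2, M4, M13 and M16 hold the deepest blue.

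Of the 10 members not tested, Cyp2c66, Cyp2j7 and Cyp2w1 had no counts in any of the 24 mice. Cyp2d34, Cyp2j11, Cyp2j12 and Cyp2j13 had 1 to 15 counts over all model mice and none over controls. Cyp2c65 had 19 counts in model mice and 6 in controls, all 6 of them in C6. The fetal and female-biased genes Cyp3a16, with 72 counts in model mice and 26 in controls, and Cyp3a44, with 76 and 39, were near the level of 3 counts per library.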

How the data were processed

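RNA-seq was done on liver of 24 mice, 18 model and 6 control; per the labels' protocols, mRNA was selected from Trizol extracts with oligo(dT) beads, and libraries were sequenced as DNA nanoballs. The authors deposited whole-number read counts per Ensembl gene with exon positions and a Length column, another unit (bases), used for TPM alone. Per the submitters' processing notes GRCm39 was the genome build; the sources used here name no aligner or counter, and no setting for strand or for multiply matching reads. Of 78298 IDs, 51498 matched a symbol (99.6% of counts).

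All 24 libraries were fitted in R 4.3.3 with edgeR 4.0.16 (robust glmQLFit, TMM factors, filterByExpr, group alone), with Benjamini-Hochberg adjustment over 17456 genes; the standard error is the absolute log2 fold change over the square root of F. The mean TMM factor was 1.06 over model mice and 0.84 over controls. The script was tested on simulated data. Alternatives were RLE, upper-quartile and no factors, DESeq2 1.42.0, limma 3.58.1 (voom), other filters and thresholds, the clock index as a covariate, a replicate block, each mouse left out in turn and, added after seeing the data, C6 as the only control. All 168 pairs of libraries within a group differed beyond counting noise (lowest chi-square per degree of freedom 19.1).

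Members and lists were chosen with earlier results of these data known. Members given in full were those called at 2-fold or more with a mean of at least 1 CPM in either group, the 8 with the highest mean TPM and the sex-biased ones with a mean of at least 0.5 CPM; any other member was named after its values were seen. From each list, the 2 called genes with the largest change and a few key regulators were named. Sequences are RefSeq promoters of GRCm38.p6 and GENCODE M21 transcripts. A protein comparison that had been planned was replaced by one of coding sequence.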

Additional observations from a re-analysis of the deposited data

Results flagged for a closer look

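In 7 of the 43 members tested, 1 control stood apart from the other 5 by Dixon's 95% criterion for 6 values, applied to CPM. In each it was the highest control. The criterion's rate of about 1 in 20 groups is for normally distributed values, and CPM without logs can be skewed to high values. The 7 are therefore a listing, and no excess over chance is read from them. C6 stood apart for 4 genes of the Cyp2a region of chromosome 7: Cyp2a5 at 2223 CPM, with the next control at 879, Cyp2a4 at 5.94 CPM, with the next at 2.28, Cyp2a22 at 2.50 CPM, with the next at 1.09, and Cyp2g1 at 2.67 CPM, with the next at 0.645. Cyp2a4 and Cyp2a5 are 98.5% identical in coding sequence, and how reads that match both were assigned is not stated. Their values in C6 may therefore not be separate observations. C5 stood apart for Cyp2d9 at 3917 CPM, with the next at 2891, and for Cyp2d40 at 97.1 CPM, with the next at 70.8. C4 stood apart for Cyp2c69 at 8.55 CPM, with the next at 3.55. The calls of Cyp2a22, Cyp2c69, Cyp2d9 and Cyp2d40 and of Cyp2a4 held without each of these mice, while Cyp2a5 and Cyp2g1 were called higher only without C6 among the mice left out.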

How the results depend on the processing

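The members called numbered 30, and 26 to 29 with any 1 mouse left out (members called higher 7 to 11, members called lower 16 to 21). With the clock index as a covariate 19 members were called (5 higher), and against C6 alone, where the spread of the lone control is assumed to equal that of the model mice, 12 (1 higher, 11 lower), with 60 of the supporting genes called. With library totals 14 members were called higher. The log2 ratio of the summed level was, with library totals and per TPM, -0.56 and -0.45 for Cyp2d (-0.88 with TMM), -0.049 and -0.012 for Cyp2j, -0.46 and -0.39 for Cyp3a, and -0.13 and -0.024 for all members.

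Fold changes that turned sign, none of them called with TMM except Cyp2d22, were these. With library totals: Cyp1a1 0.24, Cyp2c50 0.13, Cyp2d22 0.12, Cyp2d26 0.15, Cyp2e1 0.10, Cyp2s1 0.30 and Cyp2t4 0.16. With upper-quartile factors: Cyp1a1 0.0017 and Cyp2s1 0.053. With the clock index: Cyp2a5 -0.66 and Cyp2g1 -0.56. Against C6 alone: Cyp2a5 -1.10, Cyp2c37 -0.026 and Cyp2g1 -1.23. With limma-voom: Cyp2c37 -0.18. With 1 mouse left out, Cyp1a1 ran from -0.21 to 0.093, Cyp2s1 from -0.19 to 0.17 and Cyp2t4 from -0.29 to 0.036. The cause of these changes was not tested.

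The data do not show that the replicate numbers C1 to C6 and M1 to M6 pair the mice. Deviations from the group means correlated at -0.29 to 0.07 between mice of the same number, and 1 of 6 matched its own number best. A check of this kind cannot exclude pairing. With the replicate block 28 members were called (8 higher, 20 lower), and 23 in the same 12 mice without it (6 higher, 17 lower); Cyp1a1 was 0.069 and 0.0054 and Cyp2c37 -0.32 and -0.18 in these fits. Calls of members under 1 CPM rest on few counts, and those of Cyp2a12, Cyp2c23, Cyp2c54, Cyp2d22, Cyp2j8, Cyp2u1 and Cyp3a59 were lost with some single mice left out.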
